A study of Talpa occidentalis with 6 samples.

Results

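In the Iberian mole, Talpa occidentalis, 695 broad domains held more of the open chromatin states in the ovarian part of the female gonad than in its testicular part. They were built from 941 of the 19156 windows of 100 kb examined on 16 large scaffolds, or 4.91% of them (95% Wilson interval 4.62% to 5.23%; this and later intervals cover counting error only and take neighbours as independent). A window was a member when states 1 to 3 of the deposited chromatin segmentation covered at least 20 percentage points more of it in the ovarian part than in the testicular part, and adjacent members were joined into a domain. The members were thus chosen by the measured shares of states 1 to 3 in the 2 parts, so the difference between the parts inside the domains is a description and carries no test. The testis was not used to choose them.

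The data come from ATAC-seq, an assay that uses a transposase to tag DNA that is accessible in the nucleus, run on dissociated gonads of wild-type moles at postnatal day 7, with 50000 cells per reaction. Each group had 2 samples: the ovarian part of the ovotestis, the testicular part of the ovotestis, and the testis of males. The labels do not say how many animals a sample holds or whether both parts came from the same animals. The values used are 1 segmentation per tissue that stands for both of its samples, so no spread between samples and no test between tissues could be computed. The depth of the samples is unknown. The library numbers in the titles place both parts in 1 consecutive series and the testis in another, so wherever the testis differs from either part, tissue and library series cannot be told apart.

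Females of this species carry ovotestes instead of ovaries. The ovarian part holds the germ cells and follicles and works as an ovary, while the testicular part lacks germ cells, resembles testis tissue and makes androgens. This is background on the species, and the cell make-up of the samples at postnatal day 7 was not examined here. Short, strongly accessible sites in ATAC-seq mostly mark promoters and enhancers. A weaker openness over long stretches of a chromosome is a separate property, which tends to follow gene-rich, active parts of the genome. In bulk tissue, a more open state in every cell and an open state in a larger part of the cells cannot be told apart.

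The segmentation assigns 1 of 5 numbered states to each bin of 200 bp. The deposited colours run from red for state 1 to white for state 5, and between 99.6% and 99.8% of the state boundaries of a tissue separate states that are next to each other in number. States 1 to 3 are called open here and states 4 and 5 closed, on the strength of that order and those colours alone. Comparing tissues also takes a state number to mean the same in each of them, which the sources used here do not state. Because gene positions on the assembly of the segmentations, talOcc4, were not used here, no gene is assigned to a domain and the tissue labels could not be set against marker genes. No sequence of a domain was read. Positions below are on talOcc4 and counted from 1.

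The domains were mostly short. Of the 695, 514 were a single window, 133 spanned 200 kb, 37 spanned 300 kb, and 11 were longer, the longest with 700 kb. Together they covered 94.1 Mb. The opposite difference was more frequent and formed longer stretches: 1758 windows, 9.18% of those examined, were higher by 20 points or more in the testicular part, and they joined into 951 domains, of which 182 had 3 or more windows, against 48 of the 695. The longest domain of that direction spanned 2400 kb. This excess held at margins of 25 and 30 points, with 417 windows higher in the ovarian part against 1060, and 179 against 595. It also held with windows of 50 kb, 2789 against 4371, and of 200 kb, 291 against 697. It was not seen with every choice of states, nor when ranks replaced shares. By state 1 alone, 0 windows were higher in the ovarian part and 6 in the testicular part by 20 points or more. With states 1 and 2 alone, 29 windows were higher in the ovarian part and 22 in the testicular part by 20 points or more, and 230 and 168 by 10 points or more. When states 1 to 3 were kept, each window was ranked within its own tissue and a margin of 20 percentile points was applied, an alternative added after the data were seen, 2823 windows were higher in the ovarian part and 2791 in the testicular part.

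Across member windows, states 1 to 3 covered from 25.4% to 100% in the ovarian part, with a median of 55%. In the testicular part the same windows ranged from 3.2% to 79%, with a median of 29%. In the testis they ranged from 7.4% to 86.4%, with a median of 34.2%. Over all windows the medians were 33.2%, 34.8% and 36.8%. The member windows thus lay above the usual level in the ovarian part and near or below it in the other tissues: 46 of the 941 were below the all-window median in the ovarian part, 590 in the testicular part and 530 in the testis.

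**Figure D1:**
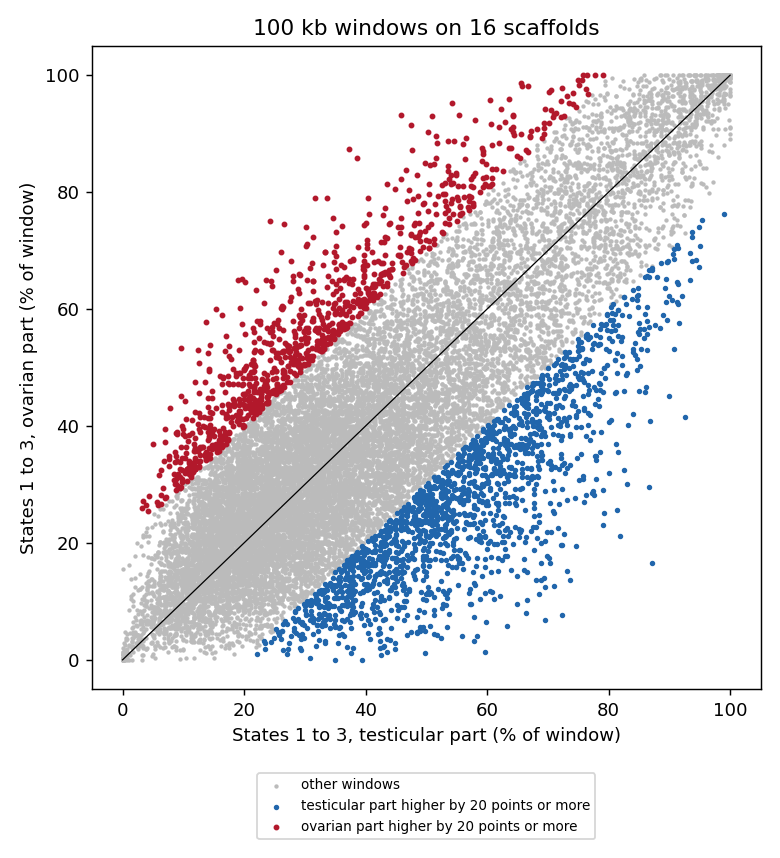
Share of each 100 kb window in states 1 to 3 in the testicular part (horizontal axis, %) and the ovarian part (vertical axis, %), 1 point per window. The 941 member windows (red) were chosen for lying 20 points or more above the diagonal and start at 25.4% on the vertical axis; the 1758 windows of the opposite direction are blue.

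Most differences were near the margin that chose them. The median difference was 24 points, the upper quartile began at 28.4 points, and 179 windows reached 30 points, 31 reached 40 and 2 reached 50. The margin does not fall in a gap of the distribution: 36 windows lay at exactly 20 points and 23 at 19.8 points, the next possible value below. Just inside it, the window of scaffold 1 at 24700001 to 24800000 held 57% of states 1 to 3 in the ovarian part, 37% in the testicular part and 34% in the testis. Others at 20 points were scaffold 1 at 72400001 to 72500000, with 52.8%, 32.8% and 33.4% in the same order, and scaffold 1 at 100900001 to 101000000, with 56.8%, 36.8% and 42.4%. Just outside, scaffold 1 at 96800001 to 96900000 held 42.8%, 23% and 41.2%, scaffold 2 at 56900001 to 57000000 held 37.2%, 17.4% and 10.4%, and scaffold 2 at 88300001 to 88400000 held 44.8%, 25% and 34.8%. These 6 windows were alike in the difference between the parts, while their testis values ran from 10.4% to 42.4%.

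The largest difference of any window was 50.8 points, on scaffold 17 at 7000001 to 7100000, which held 75% in the ovarian part, 24.2% in the testicular part and 21.6% in the testis. On scaffold 14 at 74800001 to 74900000 the values were 87.4%, 37.2% and 45.2%. Scaffold 11 at 78500001 to 78600000 held 74.6%, 26.6% and 32%. In each of these the testis lay close to the testicular part. A further 2 windows differed by 47.4 points: scaffold 2 at 1200001 to 1300000, with 93.2% against 45.8%, and scaffold 17 at 48500001 to 48600000, with 79% against 31.6%. Their testis values, 24% and 24.8%, were below both parts.

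The longest domain, 700 kb on scaffold 4 at 58600001 to 59300000, was low in openness in the testicular part and the testis. States 1 to 3 covered 39.3% of it in the ovarian part, 13.1% in the testicular part and 21% in the testis. The domain was thus above the all-window median of 33.2% in the ovarian part, and below those of 34.8% and 36.8% in the others. Its 7 windows ranged from 33% to 45.8% in the ovarian part, from 9.6% to 18% in the testicular part and from 14.8% to 25.6% in the testis, so the ovarian part did not overlap with either other tissue. The domain was poor in state 1, the most open state, with 2 segments in the ovarian part, 1 in the testicular part and 3 in the testis. One of the testis segments, at 59049201 to 59049800, was closed in both parts, although the domain as a whole was more open in the ovarian part. The adjoining windows also had more states 1 to 3 in the ovarian part, by 15 and 19 points.

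The domain of scaffold 9 at 28300001 to 28800000 spanned 500 kb and was more uneven. States 1 to 3 covered 61.2% in the ovarian part, 29.6% in the testicular part and 28.9% in the testis. Its windows ranged from 32.6% to 93% in the ovarian part, from 12% to 51% in the testicular part and from 9.8% to 50.6% in the testis. The lowest window was the same one in all 3 tissues, at 28400001 to 28500000, and so was the highest, at 28700001 to 28800000. The order along the domain was thus partly shared while its level differed. An unbroken open run of 48.6 kb lay in it in the ovarian part, against at most 27.2 kb in the testicular part and 12.2 kb in the testis.

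The 2 other domains of 500 kb lay on scaffolds 1 and 2. On scaffold 1 at 98500001 to 99000000, states 1 to 3 covered 51.3% in the ovarian part, 22.9% in the testicular part and 31.2% in the testis. There the testis windows ran from 22% to 41.6% and were split, with 3 windows above the highest testicular part window of 26.2% and 2 within its range. On scaffold 2 at 18200001 to 18700000, the coverage was 59.1%, 36.8% and 32.6%, and 26 state 1 segments lay in it in the ovarian part against 13 in each of the other tissues. In the ovarian and testicular parts the share of states 1 to 3 climbed from window to window along this domain, from 46.8% to 75% and from 25.4% to 55%.

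Of the 400 kb domains, the one with the largest difference was on scaffold 17 at 50600001 to 51000000. It was almost wholly open in the ovarian part, at 92%, against 55.2% in the testicular part and 42.9% in the testis. All 4 windows followed the same order of tissues. It was also rich in state 1 in every tissue, with 33 segments in the ovarian part, 31 in the testicular part and 26 in the testis. The coverage by state 1 differed more, at 4.75%, 3.6% and 2.25% in the same order. State 2 covered 21.25%, 10.15% and 9.25%. The number of state 1 segments thus differed little between the parts, while their coverage was higher in the ovarian part and the open share differed by 36.8 points. The domain of scaffold 10 at 86100001 to 86500000 had the same order, with 65.8%, 40.5% and 32.2%.

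On scaffolds 2 and 3 the testis lay between the parts in each of the 400 kb domains named by length. On scaffold 3, the domain at 86900001 to 87300000 held 62.4% in the ovarian part, 34% in the testicular part and 47.3% in the testis. The domain 700 kb further along, at 88000001 to 88400000, held 41%, 15.4% and 26.4%. On scaffold 2, the domain at 76900001 to 77300000 held 47.8%, 21.4% and 36.6%, with 1 state 1 segment in each tissue. The domain of scaffold 2 at 94100001 to 94500000 held 43.4%, 19.4% and 22.5%, which put the testis near the testicular part.

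**Figure D2:**
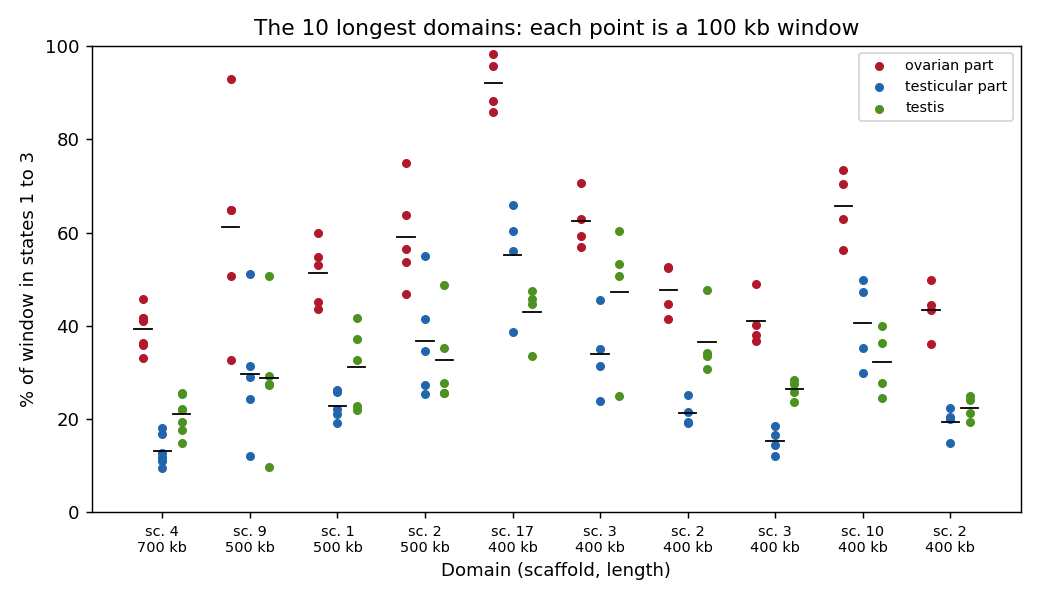
Share of states 1 to 3 (vertical axis, % of window) in the 10 longest domains, in order of length and then of mean difference; each point is a 100 kb window and each black line the mean over the windows of a domain. In the domain of scaffold 4 the 7 ovarian part windows lie between 33% and 45.8%, above all windows of the other tissues. The choice of windows sets each ovarian part window at least 20 points above the testicular part value of the same window. The separation from the testicular part is thus partly, not wholly, set by the choice.

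The difference between the parts in the domains was mostly state 3, the open state next to the closed ones and the one that makes up most open sequence everywhere. Pooled over the member windows, state 3 covered 49.5% in the ovarian part, 26.5% in the testicular part and 29.9% in the testis. State 2 covered 6.32%, 3.83% and 4.63%, and state 1 covered 1.81%, 1.48% and 1.5%. State 3 thus made up 89.1% of the difference between the parts, state 2 9.63% and state 1 1.3%. This split is near the make-up of open sequence over all windows, of which state 3 is 84.7% in the ovarian part and 86.5% in the testicular part. In the windows higher in the testicular part, state 3 made up 96.2% of the difference. In relative terms the ovarian part had 1.87 times the state 3, 1.65 times the state 2 and 1.23 times the state 1 of the testicular part. State 4 covered 67.1% in the testicular part and 41.5% in the ovarian part, and state 5 was rare, with 0.949% in the ovarian part and 1.16% in the testicular part.

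In the member windows, 28.5% of bins were open in the ovarian part and closed in the testicular part, and 2.71% the reverse. Of the bins open in the ovarian part alone, 98.2% were state 3 in the ovarian part and state 4 in the testicular part. Over all windows that step made up 97.8% of such bins, so it is no trait of the domains. State 1 in the ovarian part accounted for 45 of the 134153 bins in the member windows, or 0.0335%, and for 0.0359% over all windows.

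With a similar number of open runs, the larger open share appeared as longer runs. An open run, an unbroken stretch of states 1 to 3 within a window, averaged 4.47 kb in the ovarian part, 2.80 kb in the testicular part and 2.83 kb in the testis over the member windows. The number of runs differed less, with 12.9, 11.3 and 12.7 per window. Runs of at least 10 kb numbered 1233 in the ovarian part, 433 in the testicular part and 402 in the testis. Such runs held 44% of the open length in the ovarian part, 23.6% in the testicular part and 17.4% in the testis. In the windows higher in the testicular part the mean run was 2.5 kb in the ovarian part and 3.98 kb in the testicular part. Over all windows it was of similar length in the 3 tissues, at 3.34 kb, 3.27 kb and 3.15 kb.

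By number of segments, state 1 was about as frequent in the domains in the testis as in the ovarian part. In every tissue it was more frequent in the domains than over all windows. By coverage of the member windows the testis, at 1.5%, was near the testicular part, at 1.48%, and below the ovarian part, at 1.81%. The ovarian part had 25.3 state 1 segments per Mb of member windows, the testicular part 21.3 and the testis 24.5. Over all windows the densities were 15.8, 15.6 and 18.3 per Mb. In the windows higher in the testicular part they were only 6.81, 8.57 and 11.3 per Mb. The testis segmentation did not enter the choice of windows. Its densities too were higher in the domains than over all windows and lower in the windows of the opposite direction. They are not independent of the choice, since testis openness follows the mean openness of the parts. Over all windows the median testis share was 19% where the mean of the parts was below 20%, and 48.2% where it was 40% to 60%. Between the sets of windows, however, pooled testis openness ran opposite to the state 1 densities of the testis. It was 36% in the member windows, 39.7% over all windows and 46.8% in the windows higher in the testicular part. Densities were not compared at matched openness, and the reason for their order was not tested. State 1 was present in 749 of the 941 member windows in the testis, or 79.6%, against 65.8% of all windows and 54.4% of those higher in the testicular part.

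The state 1 segments in the domains were also longer and more widely shared than elsewhere. Their mean length was 722.6 bp in the ovarian part, 697.5 bp in the testicular part and 614.5 bp in the testis, against 595.4 bp, 578.8 bp and 505.4 bp over all windows. Of the 2006 state 1 segments of the testicular part that overlapped member windows, 89.6% overlapped a state 1 segment of the testis (95% Wilson interval 88.2% to 90.9%). Over all windows this share was 77% (76.5% to 77.4%). Neither tissue in it is the ovarian part, but the testicular part entered the choice of windows. Of the 2381 segments of the ovarian part, 74.3% overlapped a state 1 segment of the testicular part (72.5% to 76%) and 75.1% one of the testis (73.4% to 76.8%), against 67.1% and 67.9% over all windows.

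Few strongly accessible segments in the domains were closed in both other tissues. Of the 2381 state 1 segments of the ovarian part there, 12 were, or 0.504% (95% Wilson interval 0.288% to 0.879%), against 76 of 30187, or 0.252% (0.201% to 0.315%), over all windows. The longest was 600 bp, on scaffold 17 at 36740201 to 36740800. Another 2 spanned 400 bp: one lay at 90670601 to 90671000 of scaffold 13, the other at 41881801 to 41882200 of scaffold 17. The remaining 9 were single bins. Of the 2006 segments of the testicular part 0 were of this kind, against 5 of 29945 over all windows. In the testis 10 of 2305 were, or 0.434%, against 225 of 34971, or 0.643%. The rule picks windows with much sequence open in the ovarian part and closed in the testicular part. It thus favours such segments of the ovarian part and disfavours those of the testicular part. For the parts, the comparison with all windows is therefore a description only.

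In the testis, most of these domains had a level nearer to the testicular part than to the ovarian part. This held for 546 of the 695 domains, or 78.6%, and for 748 of the 941 windows, or 79.5%, against 61.4% of all windows. Most of all windows have a smaller gap between the parts, with quartiles of -9.4 and 7.4 points, so they are no like background. Of the 1758 windows higher in the testicular part, 1221, or 69.5%, had the testis nearer to the testicular part. The share of domains rose with the margin, from 72.9% at 15 points to 88.4% at 30. The testis is compared here with the same pair of segmentations that chose the domains. On a scale where the testicular part is 0% and the ovarian part 100% of the gap between them, the median testis value lay at 15.3%, with quartiles at -8% and 46.1%. It was at or below the testicular part in 226 domains, between the parts in 447 and at or above the ovarian part in 22. The median testis value was 3.8 points above the testicular part and 20.7 points below the ovarian part.

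The domains higher in the testicular part also had testis values nearer to the testicular part, but further from it. There the testis was nearer to the testicular part in 671 of 951 domains, or 70.6%, and its median position was 30.4%, which is 8.4 points below the testicular part and 18.6 points above the ovarian part. In both directions single domains ranged from below one part to above the other.

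**Figure D3:**
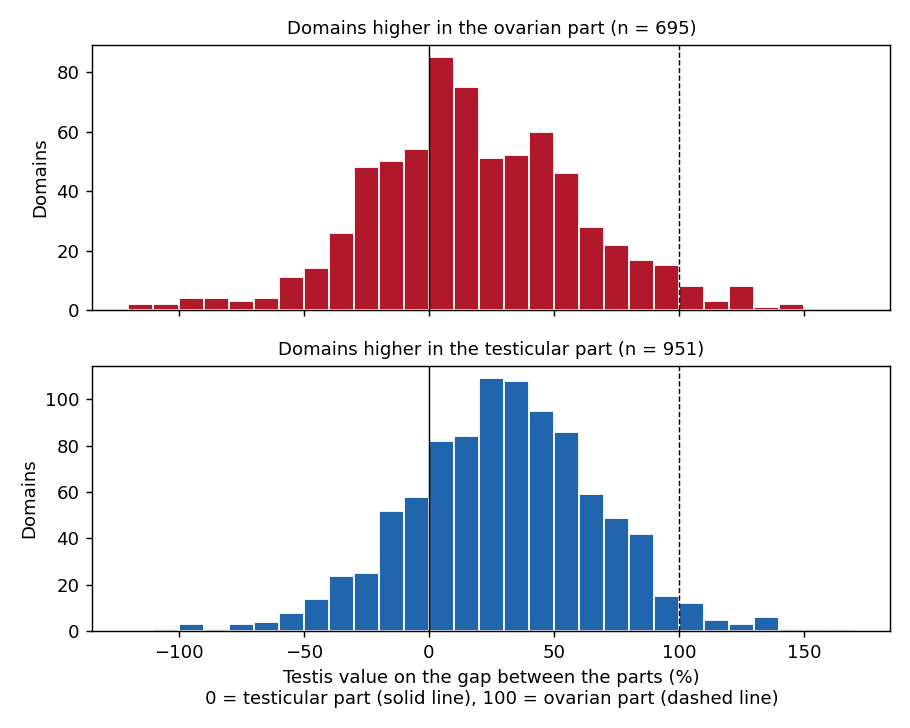
Position of the testis value on the gap between the parts (horizontal axis, %; 0 is the testicular part, 100 the ovarian part) for the 695 domains higher in the ovarian part (top) and the 951 higher in the testicular part (bottom); bars count domains in steps of 10%. The medians are 15.3% and 30.4%, and 22 of the 695 domains lie at or above 100%.

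The position of the testis changed with the openness of the domain. In the 309 domains where the mean of the parts was below 40%, the median testis position was 37.5%, and 205 were nearer to the testicular part. In the 263 domains between 40% and 60% it was 7.88%, and 220 were nearer. In the 123 domains of 60% or more it was -22%, and 121 were nearer. In the domains higher in the testicular part the order was opposite: the median position was 21.8%, 33.1% and 52.3% in the same 3 classes, and in the most open class 55 of 112 domains, or 49.1%, were nearer to the testicular part. In the most open class of the domains higher in the ovarian part, the medians were 82.9% in the ovarian part, 55.8% in the testicular part and 52.2% in the testis, so the testis was commonly below both parts. Testis windows as a whole were also less extreme than those of the parts, with quartiles over all windows of 25.6% and 51.4%, against 21.6% and 49% in the ovarian part and 22% and 52.4% in the testicular part. The part of this narrower spread in the pattern was not tested.

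By the mean over a domain, the testis value was lowest on scaffold 2 at 112200001 to 112300000, where states 1 to 3 covered 26.4% in the ovarian part, 3.8% in the testicular part and 7.4% in the testis. The highest domain mean of the testis was on scaffold 2 at 800001 to 900000, with 100% in the ovarian part, 76.4% in the testicular part and 81.2% in the testis. Both are single windows on 1 scaffold, and in both the testis was close to the testicular part.

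In 22 domains the testicular part was the low tissue and the testis was at least as open as the ovarian part. The clearest was scaffold 5 at 24200001 to 24300000, which held 38.2% in the ovarian part, 16.2% in the testicular part and 48.8% in the testis. On scaffold 3 at 71300001 to 71400000 the values were 68.4%, 48.2% and 77.2%. On scaffold 7 at 46800001 to 46900000 they were 55.8%, 28.4% and 64.4%. Scaffold 6 at 24100001 to 24200000 held 57.6%, 37.2% and 63.4%, and scaffold 12 at 31900001 to 32000000 held 64%, 42.8% and 69.6%. All 5 were single windows.

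Around the domains the ovarian part remained the more open of the parts. Mean coverage by states 1 to 3 fell in the ovarian part from 57.6% inside the domains to 48.8% in the adjoining windows and 43.7% at 1000 kb. In the testicular part it rose from 31.8% to 40.8% and was 39.9% at 1000 kb. The mean difference was thus 25.8 points inside, 8.03 points in the adjoining windows, 4.83 points at 500 kb and 3.87 points at 1000 kb. The adjoining windows are below 20 points by construction, since they would otherwise belong to the domain, and 9.81% to 12.5% of the windows at 200 to 1000 kb were themselves members of another domain. Without the windows past the margin in either direction, a calculation added after the data were seen, the mean difference was 5.36 points at 200 kb, 3.7 points at 500 kb and 3.37 points at 1000 kb. Over all windows the mean difference was -1.35 points, and 0.0307 points without those past the margin. The testis stayed flat outside, at 39.9% next to the domains and 39.6% at 1000 kb, and was 36% inside.

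**Figure D4:**
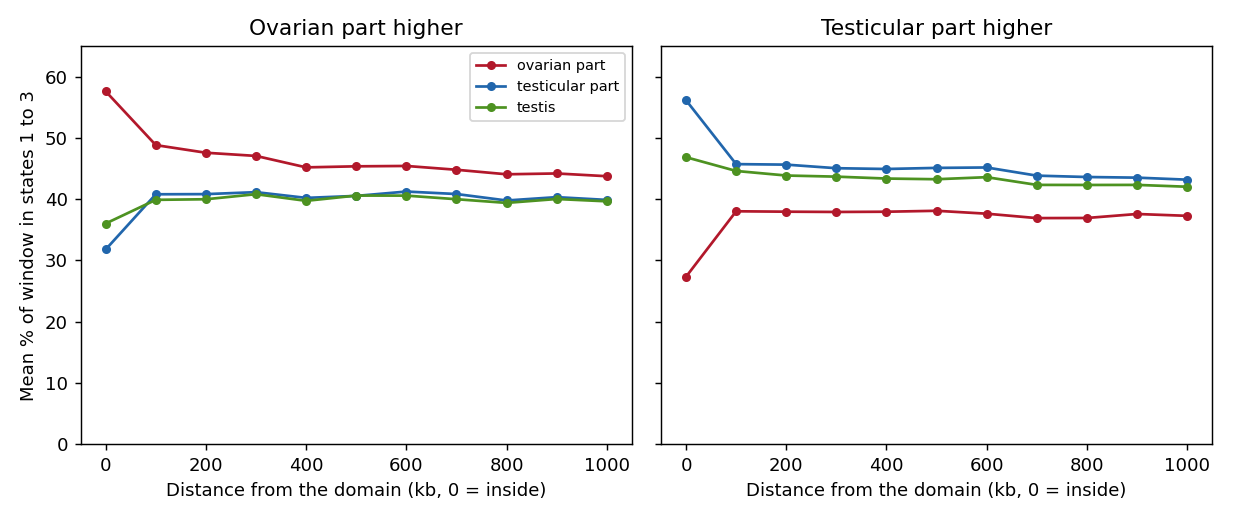
Mean share of states 1 to 3 (vertical axis, % of window) inside domains and in the windows at 100 to 1000 kb on either side (horizontal axis), for the 3 tissues. Around the domains higher in the ovarian part (left) the ovarian part is at 48.8% in the adjoining windows and 43.7% at 1000 kb, above both other tissues; the right panel gives the domains of the opposite direction.

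Although the flanks leaned the same way, few member windows lay in 1 Mb windows that passed the same margin, and such windows were rare. The share of windows higher in the ovarian part by 20 points fell with window size, from 7.28% at 50 kb to 3.04% at 200 kb. Of the 1913 windows of 1 Mb on the same scaffolds, 7 were higher in the ovarian part by 20 points or more, and they held 37 of the 941 member windows, or 3.93%. The median difference of the fixed 1 Mb window that holds a member was 10.6 points, with the member itself and any other members in it included. For 102 members, or 10.8%, the 1 Mb window was not higher in the ovarian part at all. The like share of all windows was not computed. The median difference of all 100 kb windows was -0.4 points.

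The domains were spread over all 16 scaffolds, and scaffold 17 had the highest share. Member windows were 12.2% of the windows of scaffold 17, or 72 of 591, against 2.43% to 6.52% on the other 15. Scaffold 17 was also the most open of the 16 in all 3 tissues, with 53.4% in the ovarian part, 51.2% in the testicular part and 47.2% in the testis, and its median window was 2.8 points higher in the ovarian part. Its windows of the opposite direction were 8.46%, near the 9.18% of all scaffolds. Scaffold 2 had the most members by number, 100 of 1534 windows, and was the only other scaffold than 17 on which members outnumbered windows of the opposite direction, 73 there. Scaffold 12 showed the reverse imbalance, with 29 members and 213 windows higher in the testicular part.

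**Figure D5:**
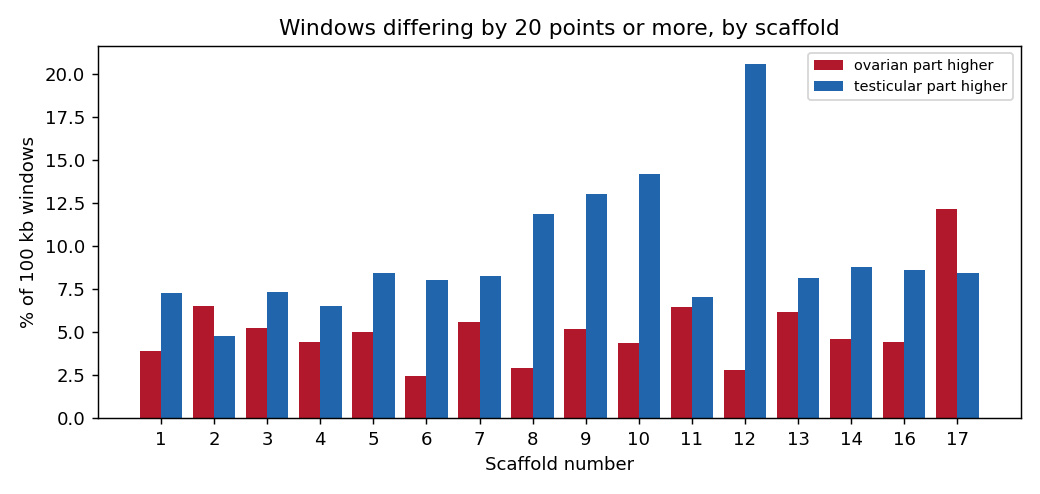
Share of the 100 kb windows of each scaffold (horizontal axis, scaffold number) that were higher by 20 points or more in the ovarian part (red) or in the testicular part (blue), in % (vertical axis). Scaffold 17 has 12.2% in red, and scaffold 12 has 2.80% in red and 20.6% in blue.

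The testis did not take the same place on every scaffold. The median position of the testis in the domains of a scaffold was highest on scaffold 3, at 46.7%, with 40.5% on scaffold 1 and 39.8% on scaffold 2. It was lowest on scaffold 17, at -20.5%, with -9.25% on scaffold 12 and -5.84% on scaffold 14. Domains of these 3 scaffolds were also more open, with median ovarian part values of 73.1%, 74.6% and 58.5%, against 49% to 50.3% on scaffolds 1 to 3.

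Domains lay unevenly along the scaffolds. The median gap between successive domains was 900 kb, 79 of the 679 gaps were a single window, and the widest was 44.4 Mb. Of 374 complete stretches of 5 Mb, 112 held no member window, 199 held 1 to 4, and 63 held 5 or more. The 16 stretches with at least 10 member windows held 21.3% of the members in complete stretches. Windows of both directions lay together in 188 of the 374 stretches. Chosen after their values were seen, the 3 fullest were scaffold 17 from 35000001 to 40000000, with 19 of 50 windows, and scaffold 2 from 75000001 to 80000000 and from 80000001 to 85000000, with 17 and 15. None of the 3 held a window of the opposite direction. The testis differed between them: on scaffold 17 the mean window was 59.3% in the ovarian part, 44.3% in the testicular part and 41.2% in the testis, while in the first of the scaffold 2 stretches it was 38.2%, 21.8% and 34%, with the testis nearer to the ovarian part.

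Near scaffold ends the shares of the 2 directions differed more than elsewhere. Within 5 Mb of an end, 5.18% of windows were members, close to the 4.91% of all windows, whereas 20.5% were higher in the testicular part, against 9.18%. Within 1 Mb the shares were 5.26% and 11.1%.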

How the data were processed

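The authors deposited 1 segmentation per mole tissue, in which column 4 numbers the state of each segment from 1 to 5; the numbers are categories, and per the labels each file belongs to both samples of its tissue. The method and software behind the mole segmentations are not given in the sources used here; STAR 2.6.1d and mm9 appear in the submitters' processing notes, with no role stated. Windows of 100 kb were laid from position 0 on scaffolds 1 to 17 without scaffold 15, and the 19156 of 19169 windows with at least 80% of their 200 bp bins segmented were kept. Shares were compared as whole bins, so 20 points was met exactly. Tools were Python 3.11.15, numpy 2.4.6, pandas 2.3.3 and matplotlib 3.10.9; joining was tested on simulated data. Regions are named as the 10 longest domains, the 5 windows of largest difference, the extremes of the testis value and the windows at the margin. The members and these lists were chosen with earlier results of these data known. Planned gene and base composition measures were not run, since no genome or gene positions on talOcc4 were used here. The mouse segmentations were not analysed here.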

Additional observations from a re-analysis of the deposited data

How the results depend on the processing

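Of 88 values recomputed under an alternative, 24 stayed within the limits set, 62 moved and 2 changed sign. The limit was a factor of 1.5 for counts and for the percent of windows passing, and a 95% binomial interval, which neighbouring bins make too narrow, for open shares and the testis position; the flank differences, recomputed without windows past the margin, were all counted as moved. With margins of 15, 25 and 30 points, 1935, 417 and 179 windows (10.1%, 2.18% and 0.934%) formed 1263, 344 and 155 domains, the testis being nearer to the testicular part in 921, 294 and 137. States 1 to 3 then covered 53.4%, 61.6% and 66% in the ovarian part, 32%, 31.1% and 30.8% in the testicular part and 35.7%, 35.4% and 34.5% in the testis. The median testis position was 19.7% at 15 points and 10.1% at 30. Windows of 50 kb gave 2789 windows, 2025 domains, 1470 with the testis nearer to the testicular part, 30.4% open there and a testis position of 22.6%. Windows of 200 kb gave 291 windows (3.04%), 232 domains and 194 nearer, with 57.8%, 33.3% and 35.6% open in the ovarian part, testicular part and testis and a position of 6.42%. Shifting windows by 50 kb moved the open share to 58.1% in the ovarian and 32.2% in the testicular part.

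With states 1 and 2 alone, 29 windows (0.151%) in 25 domains passed 20 points, and 230 windows (1.2%) in 167 domains passed 10 points. In these, states 1 and 2 covered 54.6% and 37.4% in the ovarian part, 29.5% and 22.9% in the testicular part and 17.4% and 17.8% in the testis, which was nearer to the testicular part in 25 and 163 and lay at -46.6% and -21.9%. With state 1 alone, 0 windows (0%) and 0 domains passed. Ranked within tissue, 2823 windows (14.7%) formed 1654 domains, 1211 of them nearer. The cause of these shifts was not tested. No paired analysis was possible because each tissue has 1 pooled segmentation, and for the same reason no replicate could be left out.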

Other observations

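Scaffold 15, which the choice of scaffolds leaves out, held a larger share of windows of this kind than any scaffold used above. By the same rule, 126 of its 889 windows, or 14.2%, were higher in the ovarian part by 20 points or more and formed 83 domains, while 10 windows were higher in the testicular part. The ovarian part was the higher part in 811 of the 889 windows, and the median difference was 9.4 points. Inside these windows the median share of states 1 to 3 was 40.9% in the ovarian part, 12.5% in the testicular part and 12.6% in the testis, and the testis was nearer to the testicular part in all 83 domains. Its longest domains spanned 500 kb each. The one at 57200001 to 57700000 held 78.3% in the ovarian part, 44.7% in the testicular part and 23.4% in the testis. The one at the start of the scaffold, from 1 to 500000, held 55.1%, 19.4% and 15.1%.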
